A study of Mus musculus with 8 samples.

Results

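A set of 9 circular RNAs (circRNAs) from 6 host genes of sugar, sulfate, polyamine and nucleotide metabolism was followed across 8 mouse kidney libraries. The hosts were Cryl1, H6pd, Papss1, Smox, Uap1 and Uck2, and every row of the count table with one of these symbols was taken, 9 of 6315 circRNAs and 6 of 2841 named hosts. The libraries were total RNA of C57BL/6L mice aged 8 to 10 weeks. Kidneys were taken at day 5 after unilateral ureteral obstruction (UUO, 3 libraries). A group labelled acute-chronic (AC, 2 libraries) was also labelled day 5, and 3 libraries served as control. The series' design text speaks of ischaemia/reperfusion and of sham-operated controls, while the sample titles call the controls WT; how the AC injury was made, and whether the control mice of the titles were operated on, is not stated. The labels name no transgene, and whether each library had its own animal is not stated, so p-values measure the spread between libraries, which may be technical.

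A circRNA is a closed loop made when the splicing machinery joins the end of an exon to the start of an earlier one. It is usually counted by reads across that junction, but the caller behind these counts is not given in the sources used. The 6 hosts code for enzymes of small-molecule metabolism, and the kidney tubule, the proximal tubule above all, is rich in such pathways. Cryl1 is an L-gulonate dehydrogenase of the glucuronate route, by which glucuronate is turned into pentose sugars. H6pd is hexose-6-phosphate dehydrogenase, which runs the opening steps of the pentose phosphate pathway inside the endoplasmic reticulum and supplies NADPH there. Papss1 makes PAPS, the donor of sulfate for proteoglycans, steroids and drugs. Smox oxidises spermine to spermidine and releases hydrogen peroxide. Uap1 makes UDP-N-acetylglucosamine, the sugar donor for glycans, and Uck2 phosphorylates uridine and cytidine in pyrimidine salvage. The circRNA count says nothing of the level of the linear mRNA or the enzyme, which are not analysed here.

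The 6 hosts were chosen with the comparisons of both injury groups with control already known. Their differences from control are therefore a description: fitted values are given without a p, and which members passed the threshold is counted only beside the share of all circRNAs that did. The direct comparison of UUO with AC is given with its test. That comparison was taken not to be the basis of the choice, which is an assumption, since how each host came to be picked is not stated and earlier results of these data were known.

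The hosts with the largest fitted differences from control were Cryl1, Papss1 and Smox, and their promoters are shown as the regulatory sequence of each host. They come from RefSeq in build GRCm38.p6 (for Papss1, the 1 of 2 that starts at the source transcript), cover 250 bases before to 50 after the gene start and read 5′ to 3′ on the gene's strand. The Cryl1 window is chr14:57398434-57398733 (minus strand), that of Papss1 chr3:131564518-131564817 (plus) and that of Smox chr2:131491612-131491911 (plus). Capitals mark every match, on either strand and overlaps allowed, to any of 5 short motifs. These were the E-box CACGTG, the CCAAT box, the GC box GGGCGG, the TATA box as TATAAA, and the antioxidant element core TGACNNNGC.
Cryl1: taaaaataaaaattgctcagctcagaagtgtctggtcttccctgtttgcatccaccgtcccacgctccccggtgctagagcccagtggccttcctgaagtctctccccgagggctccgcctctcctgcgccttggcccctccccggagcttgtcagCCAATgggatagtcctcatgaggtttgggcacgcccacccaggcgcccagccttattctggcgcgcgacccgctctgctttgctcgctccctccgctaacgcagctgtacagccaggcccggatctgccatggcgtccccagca
Papss1: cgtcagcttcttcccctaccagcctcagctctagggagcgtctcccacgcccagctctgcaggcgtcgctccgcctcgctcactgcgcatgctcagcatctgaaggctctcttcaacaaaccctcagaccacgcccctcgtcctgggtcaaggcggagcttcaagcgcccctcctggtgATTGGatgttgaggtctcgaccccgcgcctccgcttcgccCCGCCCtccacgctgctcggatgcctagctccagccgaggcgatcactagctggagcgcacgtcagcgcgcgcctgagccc
Smox: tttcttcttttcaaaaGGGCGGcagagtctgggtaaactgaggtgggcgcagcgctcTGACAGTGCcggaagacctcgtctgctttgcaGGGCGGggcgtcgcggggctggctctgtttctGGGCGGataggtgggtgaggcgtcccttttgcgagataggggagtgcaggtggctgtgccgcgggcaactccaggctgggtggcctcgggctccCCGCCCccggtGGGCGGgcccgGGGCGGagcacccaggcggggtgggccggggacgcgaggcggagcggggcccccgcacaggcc
The Cryl1 window held 1 match to CCAAT. That of Papss1 held 1 match to CCAAT and 1 to GGGCGG, and that of Smox held 6 to GGGCGG and 1 to TGACNNNGC. Of 32851 promoter windows of the same length, 37.4% held at least 1 match to CCAAT, 35.7% to GGGCGG and 12.4% to TGACNNNGC. Matches to CACGTG, found in 7.15% of windows, and TATAAA, found in 13.6%, were at 0 in these 3 windows. The windows of the other hosts held some of the same motifs. That of Uap1 held 6 matches to GGGCGG and 1 to CCAAT. That of Uck2 held 4 to GGGCGG, 1 to CCAAT and 1 to TGACNNNGC. The H6pd window, 5787 bases from its source transcript start, held 1 to CCAAT. The matches describe the sequence only; binding and promoter use were not measured.

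Library totals ran from 40865 to 65145 counts, with 3396 to 3811 circRNAs above 0, and 1 count was worth between 18.9 and 29.2 CPM, the count scaled to the library's total over the tested circRNAs with a TMM factor. Of the 9 members, 7 passed the filter on low counts that left 1471 circRNAs for testing. Each of the 7 was above 0 in all 8 libraries, with between 66 and 1276 counts over the series. The remaining pair, 1 each of Papss1 and Uck2, had 6 and 3 counts in all. The column headed experimental evidence was filled for 4 of the 9, against 17.2% of all rows and 38.1% of the tested circRNAs. Those 4 were the circRNAs of Cryl1 and Smox and the most counted circRNAs of Papss1 and Uck2. Matched to GENCODE, the source transcripts had between 4 exons (Smox) and 12 exons (Papss1), but which exons each loop holds is not stated in the table.

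The 9 circRNAs together held 5.33, 4.51 and 5.45 of every 1000 counts in UUO, 5.27 and 4.85 in AC, and 7.76, 7.97 and 8.55 in control. Both injured groups were thus below all 3 controls. Cryl1 set that order, since the other 8 circRNAs held between 3.06 and 3.69 per 1000 in UUO and 3.87 and 4.37 in AC, all above the 2.31 to 2.84 of control. The members thus included circRNAs that were lower and circRNAs that were higher in the injured kidneys, which the plot of CPM by library shows one by one.

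**Figure D1:**
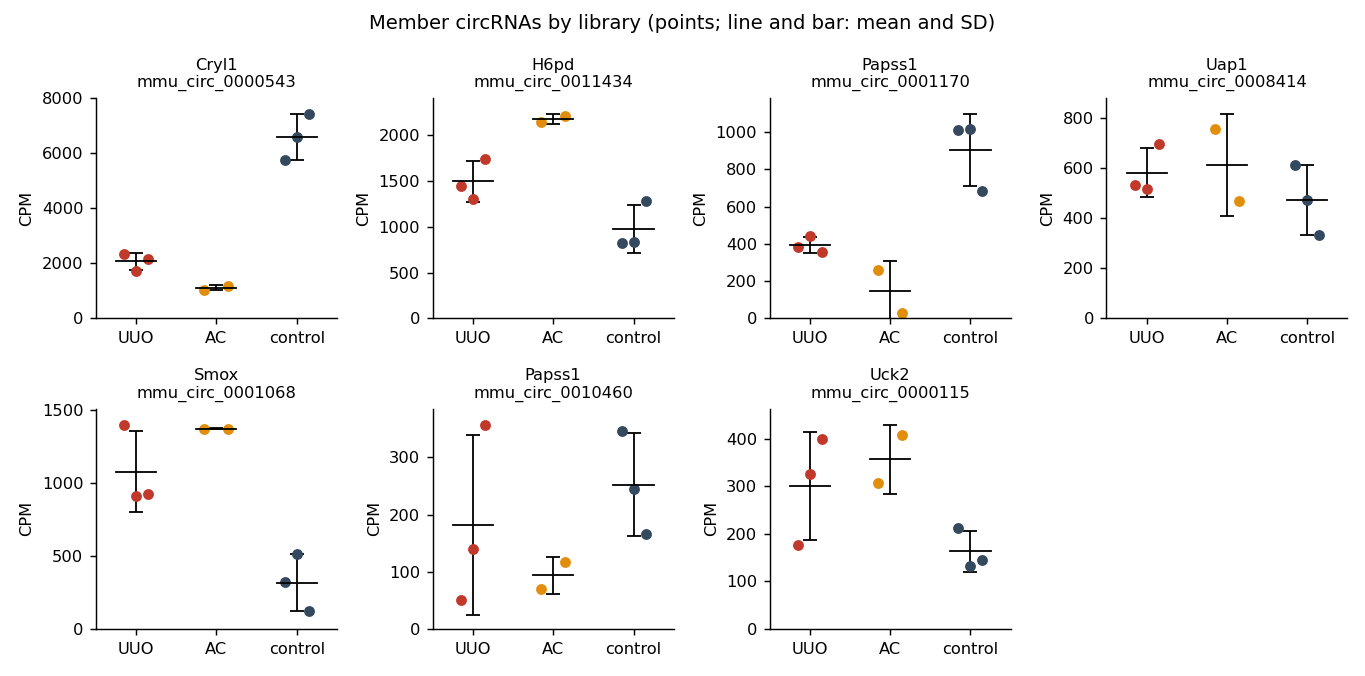
CPM of the 7 tested member circRNAs (y axis, from 0) in the 3 UUO, 2 AC and 3 control libraries; points are libraries, the line is the mean and the bar the SD (the AC bar of mmu_circ_0001170 is cut at 0). Cryl1 averaged 2068 CPM in UUO and 1102 CPM in AC against 6584 CPM in control, and Smox 1077 CPM and 1369 CPM against 318 CPM.

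The Cryl1 circRNA, mmu_circ_0000543, had the most counts of the members and was lower in every injured library than in any control. It had 92, 74 and 102 counts in UUO, 44 and 40 in AC, and 216, 349 and 359 in control. This came to 2068 ± 309.9 CPM in the 3 UUO libraries, 1102 ± 92.1 CPM in the 2 AC libraries and 6584 ± 839.9 CPM in the 3 control libraries (mean ± SD). The lowest control library, at 5743 CPM, lay above the highest injured one, at 2335 CPM. The fitted log2 fold change was -1.67 (SE 0.21) in UUO against control and -2.58 (SE 0.26) in AC against control. By mean CPM it ranked 88 of the 1471 tested circRNAs in UUO, 204 in AC and 13 in control; these ranks order counts and are not corrected for length. Its control libraries were tight, with a coefficient of variation of 12.8%, lower than in all but 8.60% of tested circRNAs. That share is over circRNAs of all levels and is not matched for level, on which the variation of counts depends.

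In bulk kidney RNA, fewer cells of a type and less RNA per cell cannot be told apart. Of 6 proximal tubule marker genes, Lrp2, the endocytic receptor megalin, had a circRNA in the table. It had 27, 25 and 13 counts in UUO, 26 and 21 in AC and 9, 92 and 47 in control. Its fitted log2 fold change against control was -0.97 in UUO and -0.70 in AC, the same sign as Cryl1, and did not pass the test (edgeR adjusted p = 0.401 and 0.676). Its groups overlapped, with control replicate 1 below every injured library. Of 4 endothelial markers, Flt1 had 2 circRNAs with a summed count of 0 to 7 in UUO, 0 and 5 in AC and 5 to 6 in control, and the other marker lists (distal nephron, podocyte, fibroblast, immune and injured tubule genes) matched 0 rows. The part of cell composition in the Cryl1 difference was not tested.

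Papss1, the sulfate-donor enzyme, had 3 circRNAs, and its most counted one, mmu_circ_0001170, was also lower in every injured library. It had 15, 19 and 17 counts in UUO, 11 and 1 in AC, and 38, 54 and 33 in control. The means were 394 ± 44.8 CPM in the 3 UUO libraries, 144 ± 163 CPM in the 2 AC libraries and 904 ± 192 CPM in the 3 control libraries (mean ± SD). The AC libraries differed more from each other than the UUO libraries did, since AC replicate 2 held the lone count. The log2 fold change was -1.19 (SE 0.45) in UUO against control and -2.55 (SE 0.60) in AC against control. Without AC replicate 2 the AC value was -1.81, and without AC replicate 1 it was -4.86.

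A second Papss1 circRNA, mmu_circ_0010460, had lower and more scattered counts. It had 2, 6 and 17 counts in UUO, 3 and 4 in AC, and 13, 13 and 8 in control. Both AC libraries lay below all controls in CPM, while the UUO libraries spanned the control range, and its log2 fold change was -0.43 (SE 0.83) in UUO and -1.41 (SE 1.02) in AC against control. Without UUO replicate 1 the UUO value was 0.0027. The third, mmu_circ_0010461, had 1, 0 and 0 counts in UUO, 4 and 0 in AC and 0, 0 and 1 in control, within or near the 3 counts that a count of 0 allows, and no fold is given.

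The share of mmu_circ_0001170 among all Papss1 counts was 66.2% in UUO (51 of 77, exact binomial 95% interval 54.6% to 76.6%), 52.2% in AC (12 of 23, 30.6% to 73.2%) and 78.1% in control (125 of 160, 70.9% to 84.3%). By library it was 83.3%, 76.0% and 50% in UUO, 61.1% and 20% in AC, and 74.5%, 80.6% and 78.6% in control. The 3 controls were close together, and the injured libraries ran from above them to far below; the 20% rested on 5 counts. The intervals cover counting error only. Summed over the 3 circRNAs, Papss1 had 18, 25 and 34 counts in UUO, 18 and 5 in AC and 51, 67 and 42 in control, with a log2 fold change of -1.04 (SE 0.38) in UUO and -2.01 (SE 0.48) in AC against control. The counting rule for reads that could belong to several loops of the same host is not stated.

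**Figure D2:**
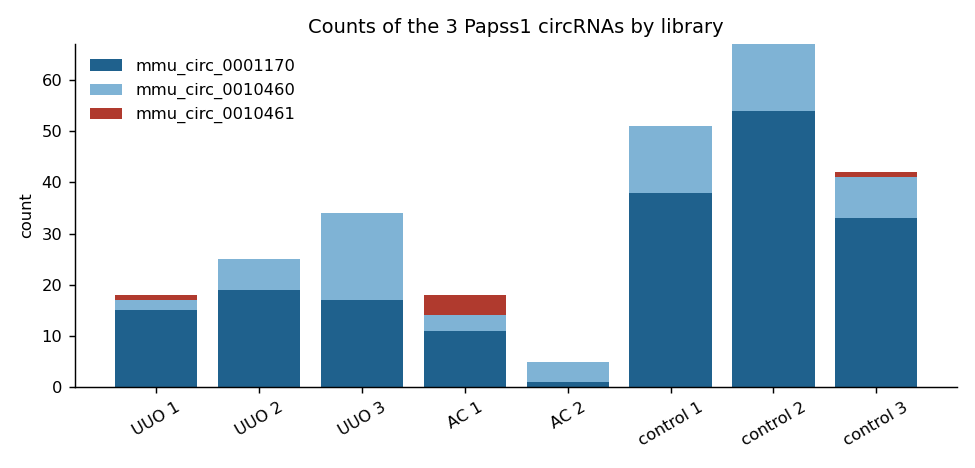
Counts (y axis, from 0, not scaled to depth) of the 3 Papss1 circRNAs, stacked for each of the 3 UUO, 2 AC and 3 control libraries. The bars reach 18 to 34 in UUO, 18 and 5 in AC and 42 to 67 in control, and mmu_circ_0001170 is the larger part of each control bar.

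Smox, the spermine oxidase, had 1 circRNA, mmu_circ_0001068, and its level was higher in every injured library than in any control. It had 55, 39 and 44 counts in UUO, 58 and 47 in AC, and 12, 27 and 6 in control. The means were 1077 ± 276 CPM in the 3 UUO libraries, 1369 ± 3.24 CPM in the 2 AC libraries and 318 ± 193 CPM in the 3 control libraries (mean ± SD). The controls were widely spread, with a coefficient of variation of 60.7%, above that of 73.1% of tested circRNAs (again not matched for level), and control replicate 3 had the lowest count. The log2 fold change was 1.74 (SE 0.42) in UUO and 2.09 (SE 0.45) in AC against control. Without control replicate 3 these were 1.31 and 1.65, and without control replicate 2 they were 2.30 and 2.66.

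The H6pd circRNA, mmu_circ_0011434, was higher in the injured libraries by a smaller amount. It had 57, 56 and 83 counts in UUO, 91 and 76 in AC, and 31, 44 and 62 in control. The means were 1499 ± 222 CPM in the 3 UUO libraries, 2180.4 ± 51.7 CPM in the 2 AC libraries and 979 ± 262 CPM in the 3 control libraries (mean ± SD). The lowest UUO library, at 1308 CPM, was just above the highest control, at 1282 CPM, while the AC libraries were at 2144 CPM and 2217 CPM. That gap between UUO and control depends on the scaling. In the fit of counts summed per host, where H6pd has the same counts, these groups overlapped. There UUO replicate 2 was at 1164 CPM and control replicate 3 at 1198 CPM. The log2 fold change was 0.61 (SE 0.28) in UUO and 1.15 (SE 0.30) in AC against control.

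The Uap1 circRNA, mmu_circ_0008414, had the smallest fitted differences from control among the tested members. It had 21, 22 and 33 counts in UUO, 32 and 16 in AC, and 23, 25 and 16 in control. All 3 groups overlapped in CPM, with means of 579.8 ± 98.4 in the 3 UUO libraries, 610.3 ± 203 in the 2 AC libraries and 471 ± 140.3 in the 3 control libraries (mean ± SD). The log2 fold change was 0.31 (SE 0.39) in UUO and 0.39 (SE 0.44) in AC against control, each smaller than its standard error. Without AC replicate 1 the AC value was -0.049.

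Uck2, the uridine-cytidine kinase, had a main circRNA, mmu_circ_0000115, with 7, 14 and 19 counts in UUO, 13 and 14 in AC, and 8, 7 and 7 in control. Its means were 301 ± 113 CPM in the 3 UUO libraries, 357 ± 72.2 CPM in the 2 AC libraries and 163 ± 43.3 CPM in the 3 control libraries (mean ± SD). Both AC libraries lay above all controls, and UUO replicate 1 lay within the control range. The log2 fold change was 0.90 (SE 0.59) in UUO and 1.13 (SE 0.65) in AC against control. The other Uck2 circRNA, mmu_circ_0008399, had 3 counts, all in AC replicate 1, and 0 in the other 7 libraries, so no fold is given.

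Against control, 2 of the 7 tested members passed the threshold in UUO (an edgeR adjusted p under 0.05 over all tested circRNAs), where 4.35% of the 1471 did. They were Smox as higher, with 2.86% of all tested circRNAs higher, and Cryl1 as lower, with 1.5% lower. In AC, 4 of the 7 passed, where 3.33% of all did: Smox and H6pd as higher (1.9% of all) and Cryl1 and the Papss1 circRNA mmu_circ_0001170 as lower (1.43% of all). As the hosts were chosen on these comparisons, nothing is read from these counts, and both comparisons share the 3 control libraries. The median log2 fold change of the 7 was 0.31 in UUO and 0.39 in AC, beside 0.016 and -0.015 over all tested circRNAs. Libraries of the injured group and of control did not overlap for 4 of the 7 in UUO and 6 of the 7 in AC, beside 24.3% and 30.7% of all tested circRNAs. H6pd was among the 4 in UUO, but its groups overlapped in the fit of counts summed per host. In that fit it was 3 of the 6 hosts in UUO and 5 of the 6 in AC, beside 25.1% and 31.6% of all hosts tested.

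Refits that leave out 1 library use the values behind the choice of hosts, so they show how the fitted calls depend on single libraries and support nothing further. Cryl1 stayed past the threshold in both comparisons in each of the 8 refits. The Smox call ended without any 1 of the 3 UUO libraries, control replicate 1 or control replicate 3 in UUO (log2 fold changes 1.52, 1.85, 1.81, 1.74 and 1.31). In AC it ended without AC replicate 1, AC replicate 2 or control replicate 3 (2.04, 2.06 and 1.65). The Papss1 call in AC ended without UUO replicate 2, AC replicate 2 or any 1 control (log2 fold changes -2.54, -1.81, -2.47, -2.45 and -2.77), and the H6pd call ended without any 1 library, at log2 values from 1.04 to 1.34.

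Summed per host, 2 of the 6 hosts passed in UUO against control (6.5% of 1185 hosts tested), Smox as higher (3.71% of all) and Cryl1 as lower (2.78%). In AC, 3 of the 6 passed (3.46% of all): Smox as higher (2.03%) and Cryl1 and Papss1 as lower (1.43%). H6pd has a single circRNA and so the same counts in both fits, yet it was called per circRNA and not per host, so its value lies close to the threshold. The host sum of Papss1 in AC lost its call without AC replicate 2, where the log2 fold change was -1.48, and also with limma-voom (-2.04), with only AC and control in the fit (-1.97) and with the replicate block (-2.08). That of Smox lost its call in UUO without UUO replicate 1 or control replicate 3 (log2 fold changes 1.5 and 1.32), and in AC without AC replicate 1 or AC replicate 2 (2.04 and 2.05).

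**Figure D3:**
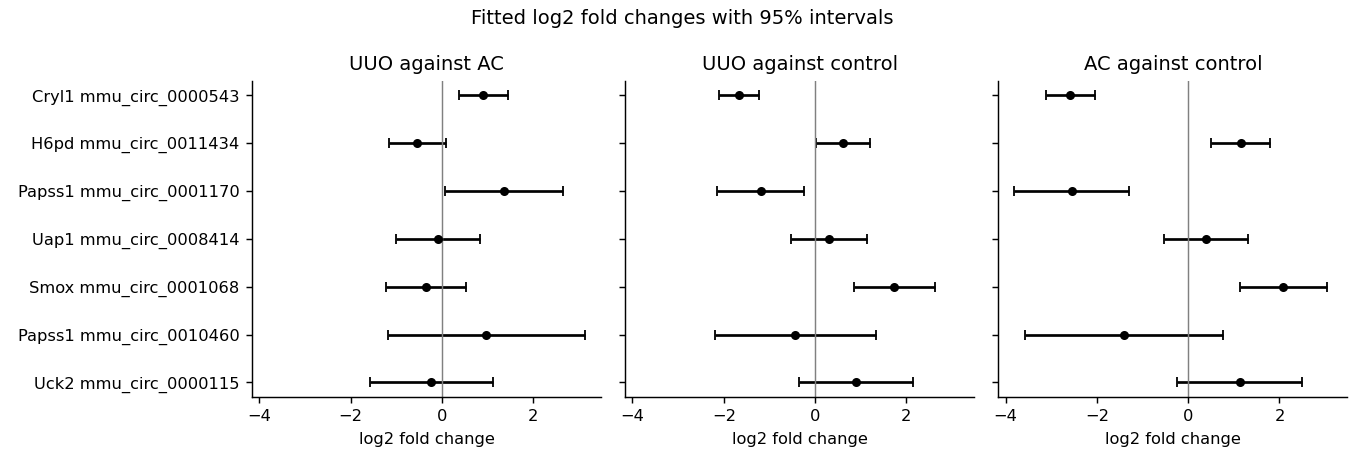
Fitted log2 fold change (x axis, points) with its 95% interval (bars) for the 7 tested member circRNAs, in UUO against AC, UUO against control and AC against control. Cryl1 and Smox lie on opposite sides of 0 in both comparisons with control. The intervals of Uap1, Uck2 mmu_circ_0000115 and Papss1 mmu_circ_0010460 include 0 in all 3 panels. Those against control are a description, since the hosts were chosen with these comparisons known.

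Ratios of counts within a library do not depend on how libraries are scaled. Cryl1 and Papss1 were lower and Smox and H6pd higher than control, in hosts chosen with those comparisons known. Ratios of a lower to a higher member were therefore set apart from control by the choice, and they add no support. How often ratios of other circRNA pairs separate the groups was not computed. No ratio was tested, also not between UUO and AC. The Cryl1 count was 1.67, 1.90 and 2.32 times the Smox count in UUO, 0.759 and 0.851 times in AC, and 18.0, 12.9 and 59.8 times in control. Every injured library lay below every control, and both AC libraries lay below the 3 UUO libraries. The ratio of Cryl1 to H6pd counts behaved likewise, at 1.61, 1.32 and 1.23 in UUO, 0.484 and 0.526 in AC, and 6.97, 7.93 and 5.79 in control. The size of a ratio depends on the length and the detection of both loops, so the difference between libraries is the measurement. The ratio of Papss1 (mmu_circ_0001170) to H6pd counts was 0.263, 0.339 and 0.205 in UUO, 0.121 and 0.0132 in AC, and 1.23, 1.23 and 0.532 in control, also without overlap between any pair of groups. The ratio of Uap1 to H6pd counts did overlap, at 0.368, 0.393 and 0.398 in UUO, 0.352 and 0.211 in AC, and 0.742, 0.568 and 0.258 in control, where control replicate 3 lay below the UUO libraries and between the AC libraries.

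**Figure D4:**
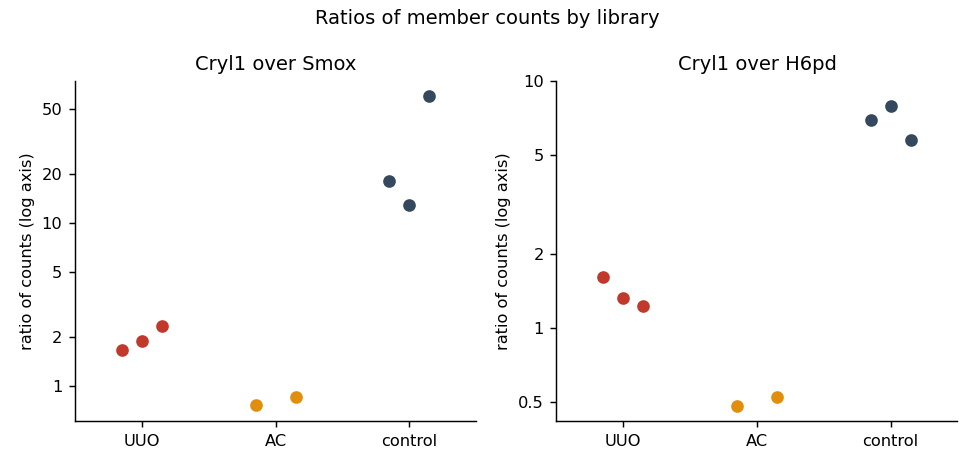
Ratio of the Cryl1 count to the Smox count (left) and to the H6pd count (right) in each library, on log axes, with points as libraries of the UUO, AC and control groups. The left ratios run from 1.67 to 2.32 in UUO, 0.759 to 0.851 in AC and 12.9 to 59.8 in control.

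The direct comparison asked whether the members differed between obstruction and AC injury. The Cryl1 circRNA was 1.88 times as high in UUO as in AC, with all 3 UUO libraries above both AC libraries, but it did not pass. Its log2 fold change was 0.91 (SE 0.25, 95% interval 0.38 to 1.44), with an unadjusted p of 0.00223 and an edgeR adjusted p of 0.582 over all 1471 circRNAs. The fitted Papss1 mmu_circ_0001170 value was 1.36 (SE 0.61, 0.065 to 2.66, edgeR adjusted p = 0.852), and it was 0.61 without AC replicate 2 and 3.62 without AC replicate 1. H6pd had a log2 fold change of -0.54 (SE 0.30, -1.17 to 0.095, edgeR adjusted p = 0.874), with all UUO libraries below both AC libraries.

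For the other 4 tested members the libraries of UUO and AC overlapped. Smox had a log2 fold change of -0.35 (SE 0.42, 95% interval -1.23 to 0.54, edgeR adjusted p = 0.954). Uap1 had -0.080 (SE 0.44, -1.0 to 0.84) and Uck2 mmu_circ_0000115 had -0.23 (SE 0.63, -1.57 to 1.11), each with an edgeR adjusted p of 0.997. The second Papss1 circRNA had 0.97 (SE 1.02, -1.19 to 3.14, edgeR adjusted p = 0.940). Each of these 4 intervals includes differences in either direction, so likeness between both injuries is not shown.

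Of the 7 members 0 passed in this comparison, as did 0% of all tested circRNAs. An unadjusted p under 0.05 was found for 2 of the 7, Cryl1 and Papss1 mmu_circ_0001170, and for 82 of 1471 circRNAs (5.57%). DESeq2 called 2 circRNAs and limma-voom 0 in the whole table, none of them a member. Per host, Cryl1 had a log2 fold change of 0.89 (SE 0.26, edgeR adjusted p = 0.657) and Papss1 0.97 (SE 0.49, edgeR adjusted p = 0.819), and 0% of 1185 hosts passed, with 5.99% at an unadjusted p under 0.05, Cryl1 among them. UUO and AC libraries did not overlap for 3 of the 7 members, beside 24.3% of all tested circRNAs.

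**Figure D5:**
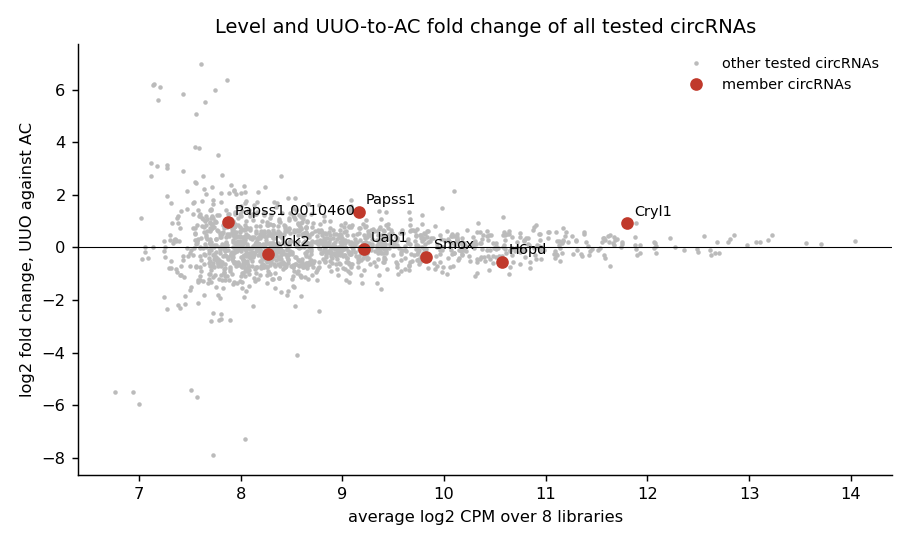
Log2 fold change in UUO against AC (y axis) against the average log2 CPM over 8 libraries (x axis) for the 1471 tested circRNAs, with the 7 members in red and labelled by host. Cryl1 lies at 0.91 and Papss1 mmu_circ_0001170 at 1.36, while Uap1 lies at -0.080.

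CircRNAs of other enzymes on the same routes were few. Lists of 190 other genes of the 6 pathways matched 21 hosts with 32 circRNAs, of which 3 passed the filter on low counts. Of these 3, 0 passed the test in any of the 3 comparisons. Pgd, the 6-phosphogluconate dehydrogenase of the pentose phosphate pathway (mmu_circ_0011414), had 16, 5 and 12 counts in UUO, 4 and 11 in AC and 3, 2 and 4 in control. Its log2 fold change against control was 1.92 in UUO and 1.59 in AC (edgeR adjusted p = 0.357 and 0.576). AC replicate 1 and control replicate 3 both had 4 counts, and the other injured libraries had more than any control.

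Alg13, a subunit of the transferase that uses UDP-N-acetylglucosamine (mmu_circ_0016141), had 28, 29 and 27 counts in UUO, 16 and 13 in AC and 11, 16 and 22 in control. The UUO libraries had the highest counts, with log2 fold changes of 0.89 in UUO and 0.11 in AC against control (edgeR adjusted p = 0.271 and 0.945). Adk, the adenosine kinase (mmu_circ_0005111), had 6, 5 and 18 counts in UUO, 15 and 11 in AC and 15, 23 and 12 in control, and its groups overlapped. Its log2 fold changes were -0.72 in UUO and -0.092 in AC against control (edgeR adjusted p = 0.597 and 0.966). The list around Cryl1, with 19 genes of the glucuronate route, matched 0 hosts, and those of sulfate transfer and polyamines matched 5 and 2 hosts with 0 tested circRNAs.

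The circRNAs whose pattern was most like each member were found by Pearson correlation of log2 CPM over the 8 libraries, which share groups and depth, so the values describe these libraries only. Cryl1 was most like the circRNAs of Lactb2 (r = 0.986) and Arhgap10 (r = 0.972). Lactb2 averaged 369 CPM in UUO, 232 CPM in AC and 999 CPM in control, the same order of groups as Cryl1. Papss1 mmu_circ_0001170 was most like those of Blvra (r = 0.958) and Slc4a4 (r = 0.941). The second Papss1 circRNA was most like those of Ankrd17 (r = 0.864) and Lamp2 (mmu_circ_0016266, r = 0.858). Smox was most like Cnksr3 (r = 0.933) and Meis2 (r = 0.932), both higher in injured libraries: Cnksr3 averaged 339 CPM in UUO and 457 CPM in AC against 63.2 CPM in control. H6pd was most like Cpsf6 (r = 0.934) and Nf2 (r = 0.921), and Uap1 like Map2k1 (r = 0.935) and Pdpk1 (r = 0.930). Uck2 was most like Tmod3 (r = 0.965) and a different Lamp2 circRNA, mmu_circ_0016267 (r = 0.940). The latter averaged 349 CPM in UUO, 451 CPM in AC and 168 CPM in control, while mmu_circ_0016266 averaged 649, 633 and 778 CPM.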

How the data were processed

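Both deposited tables were read. The first, per the file headers, gives for each circBase identifier its source transcript, host gene and whole-number counts per library, as deposited and with no normalization. In the second, a signal table, every value is the count over a constant that the authors set for the library (from 8718 to 11941). It was estimated as the median of count over signal where the signal was above 0. Products of signal and constant lay within 0.01 of the count for 100% of values, counts of 0 included. What the constant stands for is not stated. The submitters' processing notes name HISAT2, StringTie and mm9, with no role or version; the caller of circular junctions is not given in the sources used.

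The counts of all libraries entered a single edgeR fit (version 4.0.16, R 4.3.3, quasi-likelihood test) with 3 groups, TMM factors and the default filter (minimum count 10, minimum total 15). P-values were adjusted by Benjamini-Hochberg over the 1471 circRNAs, or the 1185 host sums, that passed; 32 rows with no host stayed out of the sums. Each standard error was derived from the fold change and its F value. Alternatives were DESeq2 1.42.0, limma 3.58.1 (voom), other scalings, no filter, only the 2 groups compared, the replicate number as a block and leaving out each library. Exon numbers came from GENCODE vM21. All tested members were named with their values, as were the 2 circRNAs of other hosts most correlated with each (log2 CPM, prior count 2) and pathway genes that passed the filter. Hosts, lists and rules were chosen with earlier results of these data known.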

Additional observations from a re-analysis of the deposited data

How the results depend on the processing

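The members kept their direction under each alternative run except for values near 0 when 1 library was left out. Over these settings the log2 fold change of Uck2 mmu_circ_0000115 in UUO against AC ran from -0.48 to 0.026 (without UUO replicate 1), and that of Papss1 mmu_circ_0010460 in UUO against control from -0.69 to 0.0027 (without UUO replicate 1). That of Uap1 ran from -0.36 to 0.31 in UUO against AC (host sum -0.38 to 0.35, and 0.0047 without UUO replicate 2) and from -0.049 to 0.66 in AC against control (host sum -0.053 to 0.65), the changed signs coming without AC replicate 1. The cause was not tested.

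Scaled by the deposited constant, circRNAs as a whole had a median log2 fold change of -0.26 in UUO and -0.34 in AC against control. Calls then numbered 37 in UUO (11 higher and 26 lower, against 42 and 22) and 29 in AC (7 higher and 22 lower, against 28 and 21), and 49 host sums in UUO (15 higher and 34 lower, against 44 and 33). Host sums in AC split into 11 higher and 23 lower, against 24 and 17. The Smox values became 1.40 and 1.71 and that of H6pd in AC 0.83, without a call (Smox host sums 1.41 and 1.71, likewise), and no member changed direction. For circRNAs in UUO against AC, calls were 4 without a filter, 2 with DESeq2 and 1 with only those groups in the fit; for host sums they were 3, 1 and 1. DESeq2 called 103 circRNAs in UUO against control. With only both groups in the fit, AC against control had 14 circRNA and 26 host calls, and Smox, Papss1 and H6pd lost theirs per circRNA, as did the Papss1 host sum. With limma-voom both Papss1 calls in AC were lost. Without a filter H6pd lost its call per circRNA, while its host sum passed there, with DESeq2 and with limma-voom.

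Deviations of same-numbered libraries from their group means had r of -0.107, -0.068 and -0.051 between UUO and control. Different-numbered libraries of these groups had r from -0.018 to 0.083. Same-numbered libraries had r of 0.042 and 0.036 between UUO and AC, and -0.090 and -0.113 between AC and control. With 2 AC libraries the deviations are mirror images. UUO replicate 1 had 0.042 with AC replicate 1 and -0.042 with AC replicate 2. The values of a group are thus tied to each other and cannot settle pairing. The numbers were not taken to pair samples. With the replicate block, calls against control were 12 circRNAs and 51 host sums in UUO and 5 and 18 in AC, Cryl1 among them in each, with 0 in UUO against AC. The circRNAs of Smox (1.83 in UUO, 1.91 in AC), Papss1 (-2.77) and H6pd (1.34) lost their call under the block, as did the host sums of Smox (1.86) and Papss1 (-2.08) in AC.

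Leaving out 1 library in turn gave 10 to 75 circRNA calls in UUO against control, 11 to 38 in AC against control and 0 to 1 in UUO against AC. For host sums these were 36 to 87, 22 to 48 and 0 to 1. With 1 AC library left, its variation was taken to be that of the other groups. Depth limits all of this: 1 count was worth at least 18.9 CPM, and Uck2 and the second Papss1 circRNA rested on 89 and 66 counts.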
